A study of Mus musculus with 9 samples.

Results

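The genes that write and erase histone methylation were followed across 9 single mouse oocytes. The set was drawn up by name and known function, with earlier results of these data known. It held 37 genes, 20 of them lysine methyltransferases or their close relative Kmt2e, 13 lysine demethylases and 4 arginine methyltransferases. Of these, 36 had a row of the array named for that gene alone, out of 19938 genes measured in this way. Suv39h1 was not analysed here. Kmt2d, Setd1b, Setd2 and Kdm7a had 2 rows each, and values are from the row of each with the higher mean.

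Each oocyte was a metaphase II egg from an unmated female of the outbred ICR strain, 2 months old, given 10 IU of PMSG and 10 IU of hCG 46 hours later, and each was read on 1 Affymetrix whole-transcript array. In 3 oocytes the cell was lysed directly in the NuGEN buffer and the crude lysate was used. RNA was purified with the Arcturus PicoPure kit from 3 oocytes and with the Qiagen RNeasy Mini kit from 3, and every sample was amplified with the NuGEN One-Direct chemistry. The labels do not tie oocytes to mice, and with 3 mice per condition some oocytes may share one. The tests therefore describe the scatter among these 9 cells, part of which may be technical.

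Most lysine methyltransferases carry a SET domain and transfer methyl groups to a lysine of histone H3 or H4. Methylation of lysine 4 of H3 marks promoters and enhancers, that of lysine 36 marks transcribed gene bodies, and trimethylation of lysine 9, of lysine 27 or of lysine 20 of H4 marks silent chromatin. Kdm1a removes methyl groups with a flavin cofactor, and the other demethylases of the set use a JmjC domain, iron and oxoglutarate. The growing oocyte lays down much of its histone methylation before transcription stops, and the mature egg carries the messages for these enzymes into the embryo.

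Values are the authors' expression values, taken as log2 from their range, and a difference of 1 is a 2-fold difference. Levels of different genes are not compared, since each has its own probes. As a working limit, a gene counted as above background on an array where it exceeded 95 percent of the 1231 genes for smell, pheromone and taste receptors there. This level was 7.23 to 7.29 in crude lysate, 7.19 to 7.26 with PicoPure and 7.27 to 7.48 with RNeasy. Of 12 oocyte markers 11 lay above background on all 9 arrays, against 2 of 12 cumulus and granulosa cell markers, 1 of 7 blood and immune cell markers and 1 of 5 oviduct markers.

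The mature oocyte held messages for most of these enzymes. Above background on all 9 arrays were 26 of the 36 genes, where 43.1% of all genes measured were. The share was highest among lysine methyltransferases with Kmt2e, at 16 of 19, with 3 on some arrays and 0 on none. Among lysine demethylases 8 of 13 were above background on all arrays, 1 on some and 4 on none. Of the 4 arginine methyltransferases 2 were above it on all arrays, 1 on some and 1 on none. Genes on no array were Kdm4c, Kdm4d, Kdm5a, Kdm5b and Prmt6, where 35.1% of all genes were on none.

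**Figure D1:**
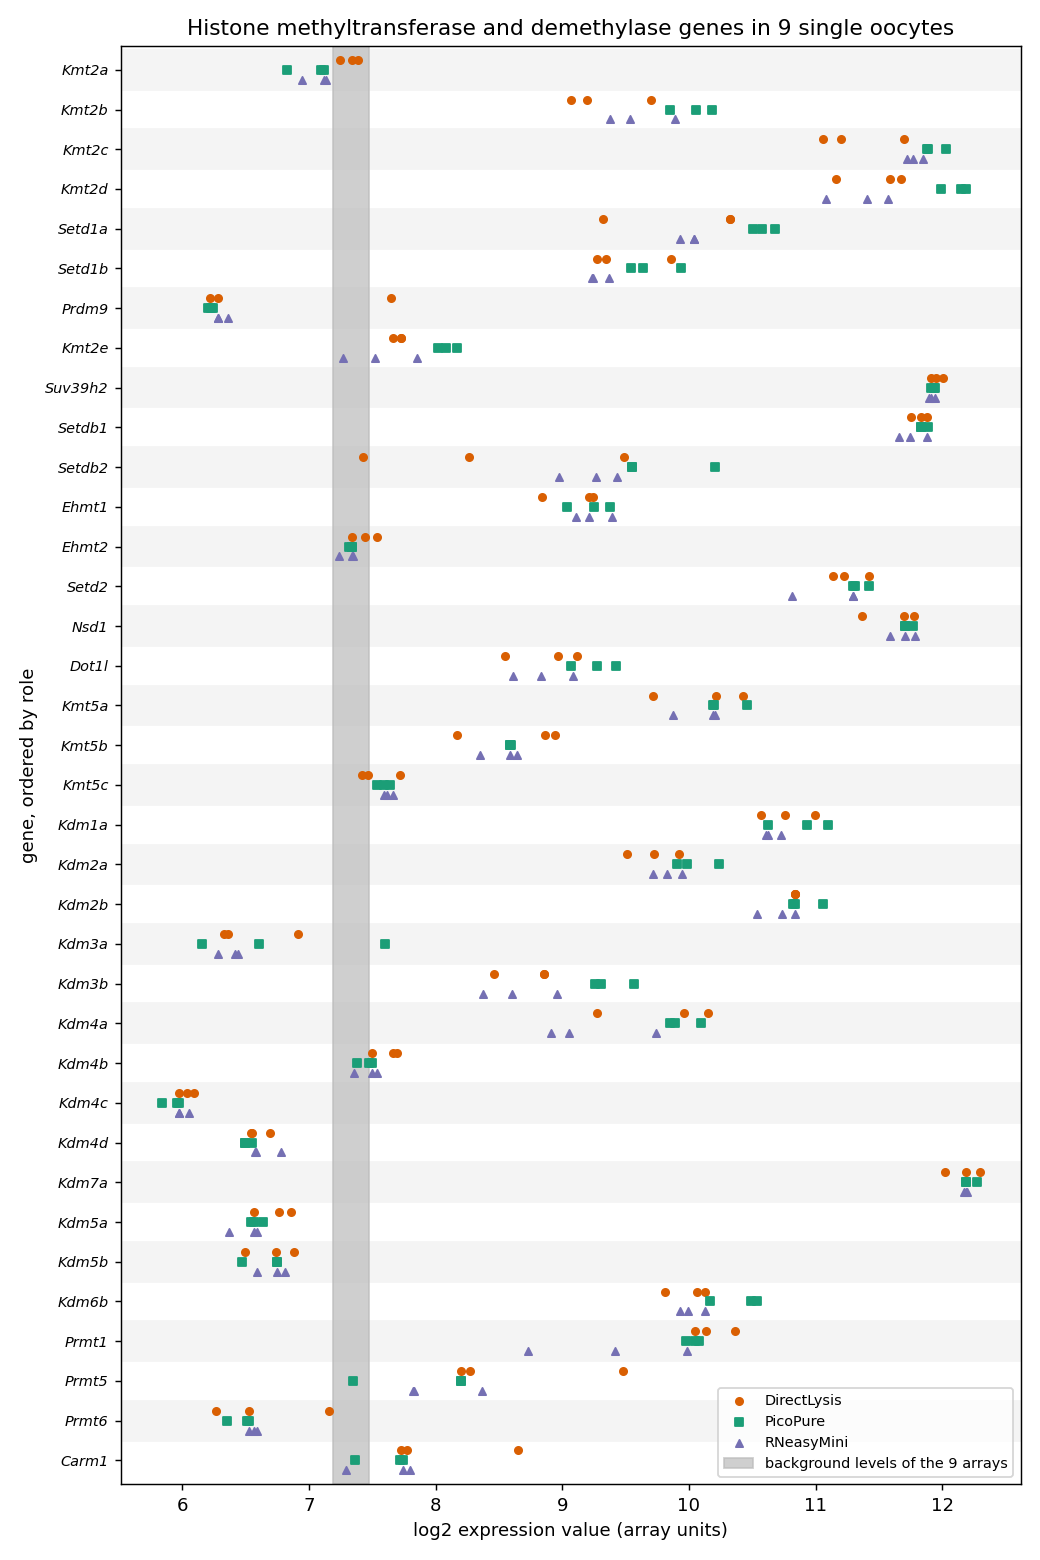
Each point is 1 oocyte, with the log2 expression value on the x axis and the 36 genes down the page by role. Orange circles are crude lysates, green squares PicoPure and purple triangles RNeasy. The grey band spans the background levels of the 9 arrays (7.19 to 7.48), and 26 genes lie above background on every array. Levels of different genes are not comparable.

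The number of set members above background was 29, 30 and 28 of 36 in crude lysate, 29, 28 and 28 with PicoPure and 26, 27 and 27 with RNeasy. Each RNeasy oocyte thus had fewer than each other oocyte. The exact permutation test of the one-way F statistic over 1680 assignments, where the smallest possible p is 0.00357, gave p = 0.0464. The p was 0.75 when the level was the receptors' 90th percentile, 0.157 for the 99th and 0.421 for the median of all genes, so the call rests on where the line is drawn. It was also lost without direct lysis replicate 1 (0.0679) or 2 (0.0571) and without RNeasy replicate 1 (0.0786), 2 (0.0571) or 3 (0.0571). All genes above background numbered 10660 to 11443 in crude lysate, 11000 to 11106 with PicoPure and 9661 to 10751 with RNeasy. The part of the arrays' own background levels, highest on 2 RNeasy arrays, was not tested. The 5 genes on some arrays, Kmt2a, Prdm9, Ehmt2, Kdm3a and Carm1, had 2, 1, 6, 1 and 8 arrays above background.

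No member passed the test between preparations. In limma fitted over all 19938 genes, 0 of 36 had an adjusted p under 0.05 for crude lysate against both column kits, where 1.01% of all genes did, and 0 for PicoPure against RNeasy, where 0.0602% did. The count was also 0 for crude lysate against PicoPure (0.597% of all genes), for crude lysate against RNeasy (0.436%) and for the moderated F over the 3 preparations (0.637%). The smallest adjusted p of a member in these 5 comparisons was 0.131, 0.301, 0.16, 0.269 and 0.161. Before adjustment, 4 members had a p under 0.05 for crude lysate against both kits (14.2% of all genes) and 8 did for PicoPure against RNeasy (7.98%). There were 10 for crude lysate against PicoPure (12.3%), 3 against RNeasy (13.4%) and 8 for the F (12.8%). These comparisons share arrays and are not independent of each other.

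The methyltransferases for lysine 4 of H3 showed the smallest p-values of the set. Kmt2c, the catalytic subunit of a complex that methylates enhancers, had 11.20, 11.06 and 11.70 in crude lysate, 11.88, 12.03 and 11.88 with PicoPure and 11.84, 11.72 and 11.77 with RNeasy. All 3 crude lysates lay below all 6 purified samples, with lysate replicate 3 just under them. All PicoPure oocytes also lay above all RNeasy ones, with a mean difference of 0.15 (adjusted p = 0.837). The crude lysate minus both kits difference was -0.54 ± 0.13 SE (95% interval -0.84 to -0.23), but its adjusted p was 0.131. Without direct lysis replicate 3 the adjusted p was 0.019, and over all 18 alternatives it ran from 0.019 to 0.29.

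Kmt2d, the catalytic subunit of the sister complex, differed most between PicoPure and RNeasy in the row used. It had 12.14, 12.19 and 11.99 with PicoPure, 11.57, 11.41 and 11.08 with RNeasy and 11.67, 11.16 and 11.59 in crude lysate. Each PicoPure oocyte lay above each of the other 6, and lysates and RNeasy samples overlapped. PicoPure exceeded RNeasy by 0.75 ± 0.17 SE (adjusted p = 0.301). The second row of Kmt2d, which has other probes, had a PicoPure minus RNeasy difference of 0.48 and a crude lysate minus both kits difference of -0.49, against -0.26 in the row used.

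Kmt2b, which is needed for methylation of lysine 4 in the growing oocyte, had 9.19, 9.07 and 9.70 in crude lysate, 9.85, 10.18 and 10.06 with PicoPure and 9.53, 9.89 and 9.38 with RNeasy. The lysates lay below all PicoPure oocytes and overlapped the RNeasy ones (-0.49 ± 0.17 SE against both kits, adjusted p = 0.252). Setd1a and Setd1b, the catalytic subunits of the SET1 complexes, differed by 0.58 and 0.42 between PicoPure and RNeasy, with adjusted p of 0.618 and 0.585. In the rows used, no RNeasy oocyte reached a PicoPure one. The second row of Setd1b had a difference of 0.17 and overlapped. There PicoPure replicate 2 (8.65) lay below RNeasy replicates 1 (8.76) and 2 (8.74). Setd1a had 9.32, 10.32 and 10.32 in crude lysate, so that 1 lysate stood about 1 log2 unit below the others.

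Kmt2a, the founding member of the family, lay at background. It had 7.34, 7.39 and 7.24 in crude lysate, of which 2 passed their array's level, and between 6.82 and 7.13 in the 6 purified samples, of which 0 did. The groups did not overlap, but no fold is given since the purified side is only a bound (adjusted p = 0.208). Prdm9, the meiotic prophase methyltransferase that places recombination hotspots, had 6.22, 7.65 and 6.28 in crude lysate, 6.23, 6.24 and 6.20 with PicoPure and 6.37, 6.28 and 6.28 with RNeasy. It passed background in 1 oocyte, crude lysate replicate 2, and the other 8 stayed within 6.20 to 6.37. Kmt2e, a SET protein with no known methyltransferase activity, had 8.02, 8.17 and 8.08 with PicoPure, 7.52, 7.27 and 7.85 with RNeasy and 7.67, 7.73 and 7.73 in crude lysate. PicoPure was above all others here too, by 0.54 ± 0.14 SE over RNeasy (adjusted p = 0.354).

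The methyltransferases for lysine 9 of H3 held both the most and the least variable messages of the set. Suv39h2, an enzyme of pericentric heterochromatin, ranged over 11.91 to 12.01 in crude lysate and 11.89 to 11.94 in purified RNA. Its difference was 0.03 with a 95% interval of -0.08 to 0.15, and its residual SD about the group means, 0.03, was smaller than that of all but 1.06% of genes. Setdb1, which silences retroelements, spanned 11.75 to 11.88 in crude lysate and 11.66 to 11.88 in purified RNA (difference 0.02, 95% interval -0.13 to 0.17).

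Its relative Setdb2 varied most. It had 7.43, 9.49 and 8.26 in crude lysate, 10.21, 9.55 and 9.55 with PicoPure and 8.97, 9.27 and 9.43 with RNeasy. The lysates spread from near background to above every RNeasy oocyte, and only PicoPure lay above all lysates. The residual SD was 0.65, larger than that of 95.8% of genes, and the crude lysate minus both kits difference was -1.10 ± 0.40 SE (adjusted p = 0.286). It was -0.62 without direct lysis replicate 1 and -1.65 without replicate 2, so single lysates set its size. Ehmt1 and Ehmt2, which form the complex for dimethylation of lysine 9, had crude lysate minus both kits differences of -0.13 and 0.12. Ehmt2 lay at background, between 7.24 and 7.53 over all 9 arrays.

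No enzyme for lysine 36 or 79 of H3 or lysine 20 of H4 passed the test in any comparison. Setd2, which trimethylates lysine 36 and is required in oocytes, had 11.22, 11.13 and 11.42 in crude lysate, 11.29, 11.42 and 11.31 with PicoPure and 10.81, 11.29 and 11.29 with RNeasy. RNeasy replicate 1 was the lowest, as it also was in the second row of the gene, at 10.68. Nsd1, which dimethylates lysine 36, spanned 11.37 to 11.77 in crude lysate and 11.58 to 11.78 after purification. Dot1l, the lysine 79 enzyme, had 8.55, 8.97 and 9.12 in crude lysate, 9.28, 9.42 and 9.07 with PicoPure and 8.61, 9.08 and 8.83 with RNeasy. Its groups overlapped, with a PicoPure minus RNeasy difference of 0.41 (adjusted p = 0.627). Kmt5a, which places the first methyl group on lysine 20, had 9.71, 10.21 and 10.43 in crude lysate, 10.46, 10.20 and 10.19 with PicoPure and 9.87, 10.19 and 10.21 with RNeasy, again with overlap. Kmt5b and Kmt5c, which add further methyl groups there, had crude lysate minus both kits differences of 0.10 and -0.07.

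Demethylases were read at very different reliability. Kdm1a, which removes methyl groups from lysine 4 and is needed as a maternal factor, had 11.00, 10.75 and 10.57 in crude lysate, 10.93, 11.10 and 10.63 with PicoPure and 10.62, 10.72 and 10.61 with RNeasy. The groups overlapped, and the crude lysate minus both kits difference was 0.00 (95% interval -0.29 to 0.29). Kdm2a and Kdm2b act on lysine 36. Kdm2a had 9.51, 9.92 and 9.73 in crude lysate, 10.24, 9.90 and 9.99 with PicoPure and 9.72, 9.95 and 9.83 with RNeasy. The spread of Kdm2a inside a group was as large as the gaps between groups.

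Among the demethylases for lysine 9, the related Kdm4 genes split. Kdm4a, an oocyte factor that removes trimethylation of lysine 9, had 9.27, 9.96 and 10.15 in crude lysate, 9.85, 9.89 and 10.09 with PicoPure and 8.91, 9.74 and 9.06 with RNeasy. PicoPure lay above RNeasy in all oocytes, by 0.71 ± 0.27 SE (adjusted p = 0.568), while the lysates overlapped both. Kdm4b was above background on all 9 arrays but close to it, between 7.36 and 7.69. Kdm4c and Kdm4d lay on no array above it, with ranges of 5.84 to 6.09 and 6.49 to 6.78. Kdm7a, which removes dimethylation of lysines 9 and 27, spanned 12.02 to 12.29 in crude lysate and 12.17 to 12.27 after purification. The second row of Kdm7a, by contrast, ranged over the 9 arrays between 6.70 and 10.59, so the narrow spread belongs to the row used.

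Kdm3b, also active on lysine 9, had 9.31, 9.57 and 9.26 with PicoPure, 8.38, 8.60 and 8.96 with RNeasy and 8.86, 8.46 and 8.85 in crude lysate. All PicoPure oocytes lay above all others (0.73 ± 0.17 SE over RNeasy, adjusted p = 0.329). Its relative Kdm3a had 6.36, 6.91 and 6.33 in crude lysate, 7.60, 6.61 and 6.16 with PicoPure and 6.42, 6.44 and 6.28 with RNeasy, and passed background in 1 oocyte, PicoPure replicate 1. The lysine 4 demethylases Kdm5a and Kdm5b stayed below background on every array. Kdm5a had 6.76, 6.86 and 6.57 in crude lysate, 6.64, 6.57 and 6.54 with PicoPure and 6.59, 6.57 and 6.37 with RNeasy, and Kdm5b lay between 6.47 and 6.88. Kdm6b, which removes methylation of lysine 27, had 10.54, 10.17 and 10.49 with PicoPure, 9.93, 10.13 and 9.99 with RNeasy and 10.06, 9.81 and 10.13 in crude lysate. PicoPure was again the highest group (0.38 ± 0.13 SE over RNeasy, adjusted p = 0.506).

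The sequence upstream of these genes was looked at as a feature that the choice of genes did not use. RefSeq promoter windows on GRCm38.p6 were matched by symbol for 26 of the 36 genes, and the 250 bases before the first listed start were read. The letters CG, which read the same on both strands, occurred at least 10 times in all 18 windows of members above background on every array, with 11 to 56 copies. They did so in 3 of 4 windows of members above background on no array and in 3 of 4 of those above it on some. The exceptions rest on the use of the first window: Kdm4c and Prdm9 each have another listed start, with 19 and 13 CG, while 1 further window of Kmt5a, a gene above background on all arrays, has 7. Of all 32851 windows 37.8% held at least 10, and their median was 6. That base takes every window of every gene, whatever its level, while members were counted by their first window. The share among all genes above background is not given, so a high CG count is not read as particular to the members. To show the range, the windows of 3 JmjC genes follow, 5′ to 3′ on the strand of the gene, with every CG in capitals. Kdm7a (chr6:39206774-39207023, minus strand) had the most CG of the set, 56. Kdm4a (chr4:118180044-118180293, minus strand), above background on all arrays, had 12, and Kdm4d (chr9:14500483-14500732, minus strand), above it on none, had 14.
Kdm7a: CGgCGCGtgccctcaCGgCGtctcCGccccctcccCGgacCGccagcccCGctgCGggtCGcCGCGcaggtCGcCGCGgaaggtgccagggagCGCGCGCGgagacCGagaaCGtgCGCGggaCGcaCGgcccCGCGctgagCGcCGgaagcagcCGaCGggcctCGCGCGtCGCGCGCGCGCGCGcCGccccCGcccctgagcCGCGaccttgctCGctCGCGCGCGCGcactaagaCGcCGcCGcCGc
Kdm4a: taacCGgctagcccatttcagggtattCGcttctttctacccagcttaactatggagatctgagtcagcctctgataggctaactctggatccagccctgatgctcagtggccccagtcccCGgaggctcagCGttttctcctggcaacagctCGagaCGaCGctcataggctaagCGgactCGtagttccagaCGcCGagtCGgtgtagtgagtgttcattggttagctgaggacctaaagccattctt
Kdm4d: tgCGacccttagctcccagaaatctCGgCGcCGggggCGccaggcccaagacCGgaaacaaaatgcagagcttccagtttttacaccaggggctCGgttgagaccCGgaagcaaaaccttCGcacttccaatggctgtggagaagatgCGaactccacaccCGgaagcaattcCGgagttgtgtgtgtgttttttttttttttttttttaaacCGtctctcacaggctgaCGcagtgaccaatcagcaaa
Kdm4a and Kdm4d thus had like numbers of CG while their messages fell on opposite sides of background.

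Arginine methyltransferases varied strongly between oocytes. Prmt5, which makes symmetric dimethylarginine, had 8.20, 9.48 and 8.27 in crude lysate, 8.20, 8.20 and 7.35 with PicoPure and 7.83, 8.36 and 7.82 with RNeasy. Lysate replicate 2 stood more than 1 log2 unit above every other oocyte, and the residual SD of 0.53 exceeded that of 93.1% of genes. The same oocyte was the highest of the 9 for 8 of the 36 members, as it was for 12.7% of all genes. Prmt1, the main source of asymmetric dimethylarginine, had 10.05, 10.36 and 10.13 in crude lysate, 9.97, 10.08 and 10.05 with PicoPure and 9.98, 9.42 and 8.73 with RNeasy. The RNeasy oocytes spread over 1.25 log2 units and the other 6 over 0.39. Carm1, a coactivator of nuclear receptors, spanned 7.72 to 8.65 in crude lysate and 7.29 to 7.80 after purification. Prmt6, which acts on arginine 2 of H3, stayed below background on all arrays.

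Set side by side, PicoPure against RNeasy gave mostly positive differences. Of 36 members 25 were positive and 11 negative, with a median of 0.12, where the median over all genes was -0.03. Among the 26 members above background on all arrays 22 were positive, with a median of 0.21 against 0.02 for all 8597 genes above background on every array. At an unadjusted p under 0.05, 8 members were higher with PicoPure and 0 lower. Over all genes 921 were higher (4.62%) and 670 lower (3.36%), and 7.76% of genes above background on at least 3 arrays were higher. Among all 8597 genes above background on every array, 766 were higher and 309 lower. An excess on the higher side was thus not particular to the members. The 8 members were Kmt2d, Kdm3b, Kmt2e, Kdm6b, Kdm4a, Setd1b, Prmt1 and Setd1a. The PicoPure and RNeasy oocytes did not overlap for 9 members higher with PicoPure (6.92% of all genes) and 2 lower (7.03%). All 9 were among the 26 members above background on all arrays, of which 0 were lower without overlap. Of the 8597 genes above background on every array, 1115 were higher and 579 lower without overlap. None of the member differences passed the adjusted test. The unadjusted count was 4 without PicoPure replicate 1 or 2 or RNeasy replicate 1, 5 without RNeasy replicate 3 and 5 under a further quantile normalization. The shares of all genes in these fits are not given.

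Crude lysate against both kits had no common direction, with 19 positive and 17 negative differences and a median of 0.01, against 0.00 for all genes. The range ran from -1.10 for Setdb2 to 0.69 for Prmt5. At an unadjusted p under 0.05, 3 members were lower (7.01% of all genes), namely Kmt2c, Kmt2b and Setdb2, and 1 was higher (7.18%), Kmt2a. The lysates did not overlap the purified samples for 1 member lower (3.72% of all genes), Kmt2c, and 1 higher (4.31%), Kmt2a. Kmt2a lay at background, and its difference was 0.02 when values were raised to background. Against PicoPure alone 9 members were lower (5.91% of all genes) and 1 higher (6.37%) at an unadjusted p under 0.05, and 8 did not overlap on the lower side (7.67%) and 1 on the higher (8.94%). These 8 were Kmt2b, Kmt2c, Kmt2d, Setd1a, Kmt2e, Setdb2, Kdm3b and Kdm6b. They and the 9 lower at an unadjusted p under 0.05 were all among the 26 members above background on all arrays. Of the 8597 genes above background on every array, 870 were lower than PicoPure at that p and 1034 lower without overlap. The median difference from PicoPure was -0.08 and 22 of 36 were negative, and from RNeasy it was 0.08 and 24 were positive. Over all 19938 genes these medians were 0.014 and -0.005, with 9311 negative against PicoPure and 9752 positive against RNeasy.

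**Figure D2:**
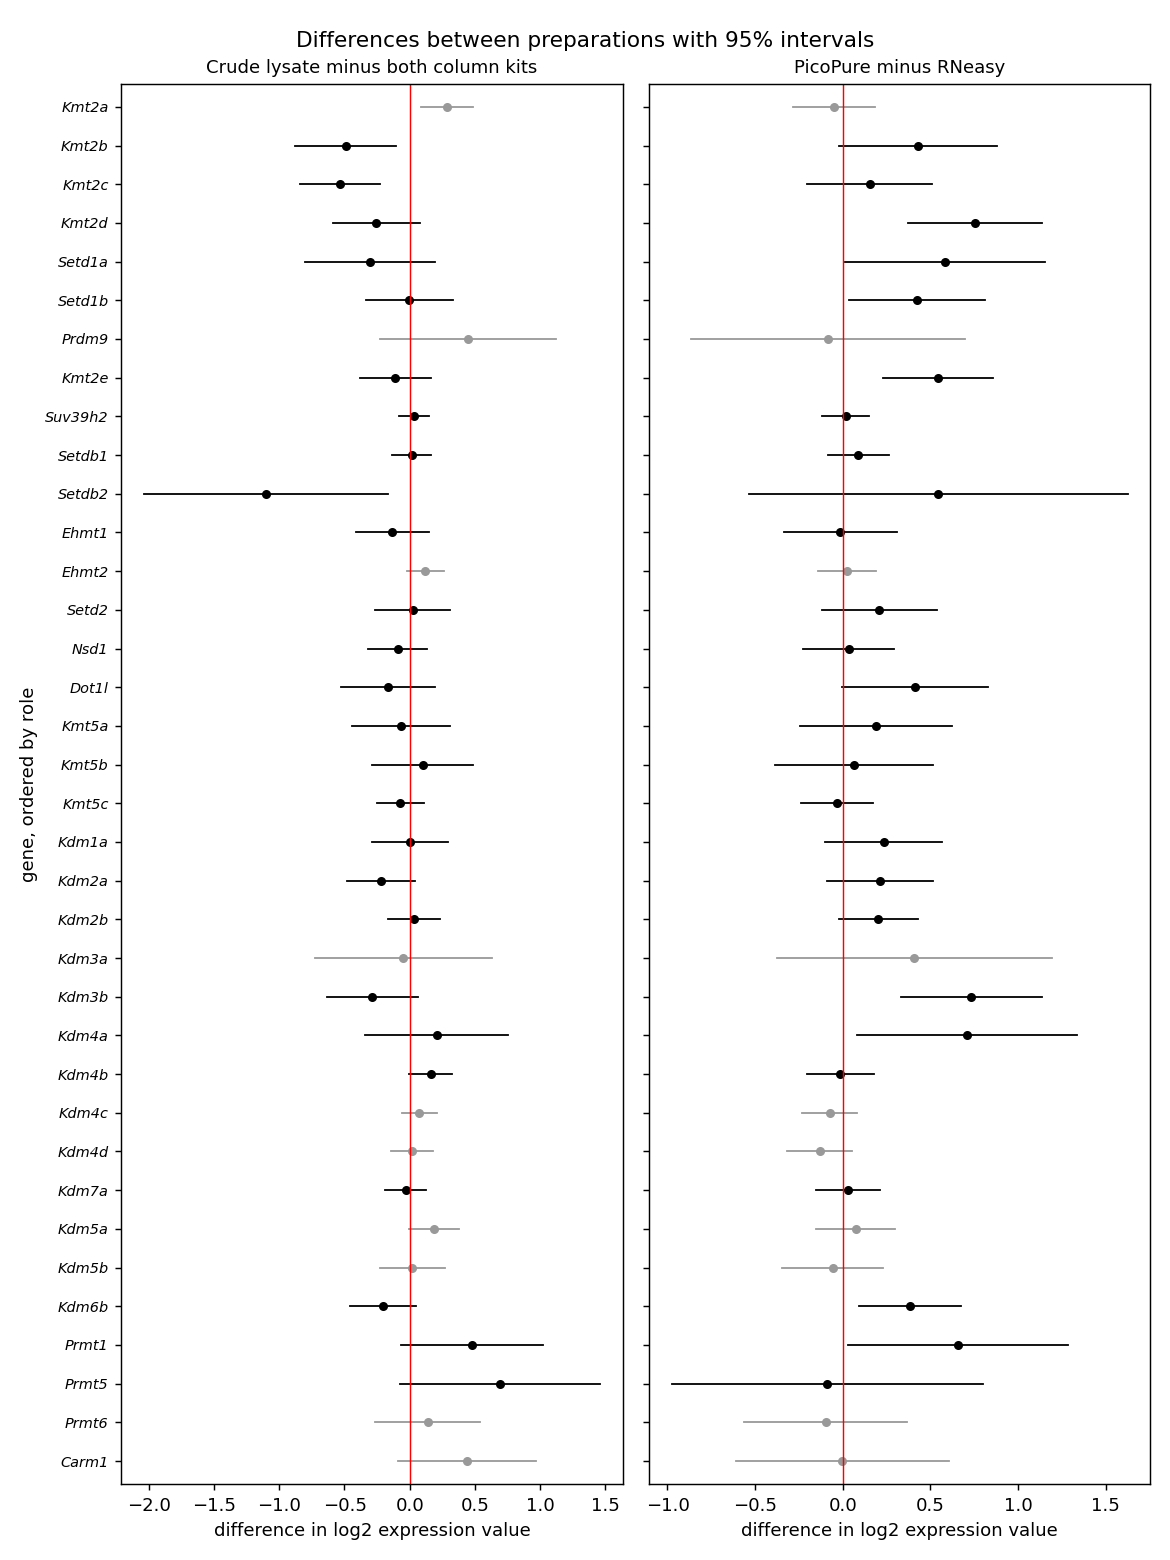
Differences in log2 expression value for the 36 genes, with crude lysate minus both column kits on the left and PicoPure minus RNeasy on the right. Points are limma estimates from 9 arrays and bars 95% intervals not adjusted for the number of genes. Black marks genes above background on all 9 arrays and grey the other genes. The red line is 0, and 25 of 36 points lie on its positive side on the right and 19 on the left.

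Among the partners and relatives of these enzymes, 2 genes passed the test. Of 72 with a row, 2 were lower and 0 higher in crude lysate than in both kits, where 1.01% of all genes were called in either direction. Among the 8597 genes above background on every array, 114 were called lower and 25 higher. Between PicoPure and RNeasy 0 were called, against 0.0602% of all genes. Of 14 COMPASS and Kmt2 complex subunits the 1 called was Ncoa6, a coactivator of the Kmt2c and Kmt2d complexes. It had 10.02, 9.48 and 9.57 in crude lysate, 11.04, 11.24 and 11.18 with PicoPure and 10.60, 10.55 and 10.60 with RNeasy. The lysates lay below all purified samples, by 2.27-fold (-1.18 ± 0.12 SE, adjusted p = 0.0103). It was lower against each kit alone (-1.47, adjusted p = 0.0104 for PicoPure, and -0.89, adjusted p = 0.0493 for RNeasy). Against both kits the adjusted p with the replicate number as a block was 0.0593, the highest of 18 alternatives and the only one that lost that call. The call against PicoPure alone was lost in 2 of 18 alternatives (adjusted p up to 0.0665) and the one against RNeasy alone in 11 of 18 (up to 0.144).

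Of 13 other demethylases and JmjC proteins the 1 called was Kdm6a, a lysine 27 demethylase that sits in the same Kmt2c and Kmt2d complexes. It had 11.06, 10.74 and 10.83 in crude lysate, 11.59, 11.63 and 11.68 with PicoPure and 11.38, 11.27 and 11.47 with RNeasy. Again no lysate reached a purified sample (-0.63 ± 0.08 SE, 1.54-fold lower, adjusted p = 0.0206). The call was lost in 8 of 18 alternatives, with adjusted p between 0.0141 and 0.0735 over the 18. These were the further quantile normalization, the replicate block and the fits without direct lysis replicate 2 or 3, PicoPure replicate 1, 2 or 3 or RNeasy replicate 1. Paxip1, a further subunit of these complexes, had 8.20, 7.62 and 8.60 in crude lysate, 9.16, 9.66 and 9.51 with PicoPure and 8.56, 8.93 and 8.61 with RNeasy, and did not pass (-0.93 ± 0.22 SE, adjusted p = 0.107). Kmt2c, Kmt2d, Ncoa6, Kdm6a and Paxip1 were brought together after their values were seen, and no test was made of them as a group. The 14 listed subunits had 7 positive and 7 negative differences between crude lysate and both kits, with a median of -0.01. At an unadjusted p under 0.05, 4 of them were lower (7.01% of all genes) and 1 higher (7.18%). Lysates and purified samples did not overlap for 3 on the lower side (3.72% of all genes) and 0 on the higher (4.31%). These 3 were Ncoa6, Psip1 (-0.58, adjusted p = 0.136) and Bod1l (-0.52, adjusted p = 0.155). Pagr1a, also a subunit of the Kmt2c and Kmt2d complexes, had a difference of 0.36 (adjusted p = 0.564), and Men1, a subunit of the Kmt2a and Kmt2b complexes, one of 0.68 (adjusted p = 0.232). The core subunits Ash2l and Rbbp5 had differences of 0.05 and 0.01.

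**Figure D3:**
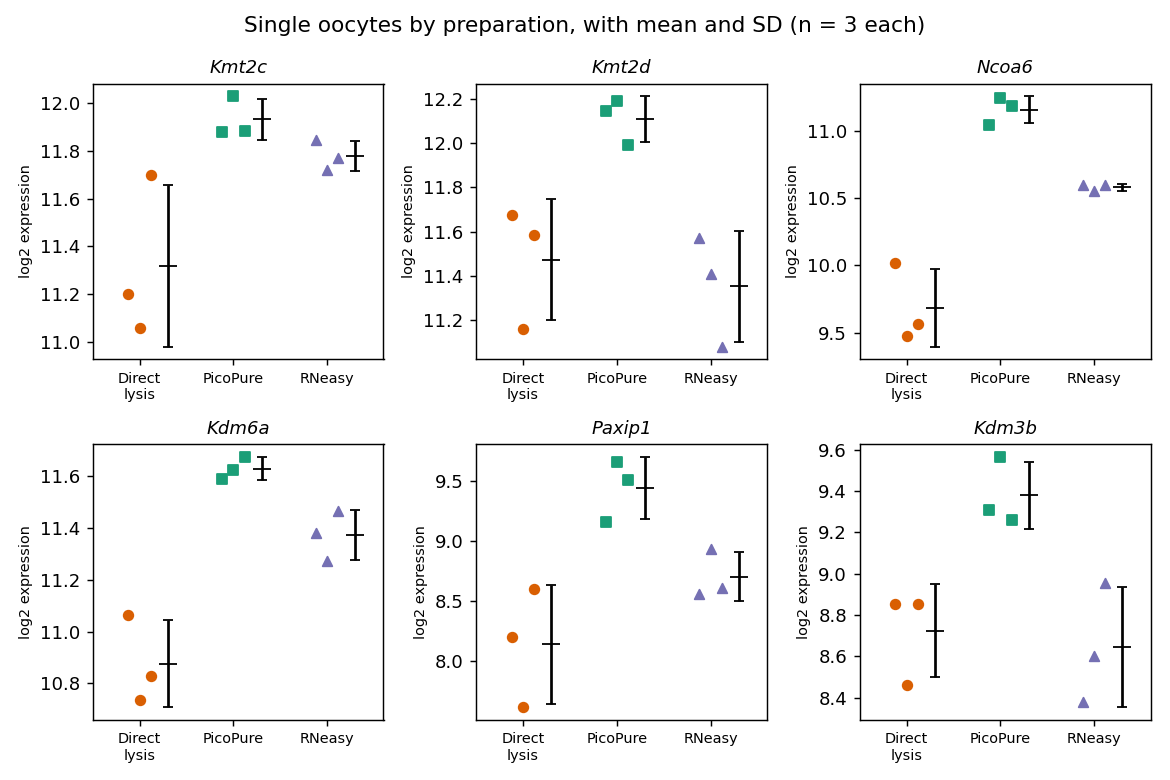
Log2 expression value of each oocyte by preparation for Kmt2c, Kmt2d, Ncoa6, Kdm6a and Paxip1, subunits of the Kmt2c and Kmt2d complexes chosen after their values were seen, and for Kdm3b. Bars give the mean and SD of 3 oocytes, and each panel has its own y axis. Crude lysates lie below all purified samples for Kmt2c, Ncoa6 and Kdm6a, and PicoPure lies above both other groups in all 6 panels.

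In limma the other lists held 0 genes past the test in any comparison. They were 9 partners and readers of lysine 9 methylation, 9 Kdm1a partners, 6 partners of arginine methyltransferases, 16 other SET and PRDM proteins and 5 other arginine methyltransferases. At an unadjusted p under 0.05 the 72 partners and relatives together had 11 lower (7.01% of all genes) and 2 higher (7.18%) in crude lysate against both kits. With PicoPure against RNeasy they had 11 higher (4.62% of all genes) and 2 lower (3.36%). Of the 72, 55 were above background on all arrays. Among all 8597 such genes, 893 were lower and 527 higher in crude lysate against both kits at that p. With PicoPure against RNeasy 766 of the 8597 were higher and 309 lower. The Kdm1a scaffold Rcor1 had 9.38, 8.77 and 9.22 in crude lysate, 10.23, 9.81 and 10.09 with PicoPure and 9.23, 9.61 and 9.20 with RNeasy. As with Kdm3b and Kmt2d, PicoPure lay above both other groups (crude lysate minus both kits -0.57 ± 0.17 SE, adjusted p = 0.188). Btg2, which binds Prmt1, had 8.53, 8.89 and 8.45 in crude lysate, 8.60, 9.31 and 8.87 with PicoPure and 9.87, 9.69 and 9.51 with RNeasy. Here RNeasy lay above both other groups, with differences of -0.76 ± 0.20 SE for PicoPure minus RNeasy (adjusted p = 0.367) and -1.07 ± 0.20 SE for crude lysate minus RNeasy (adjusted p = 0.074). Kdm1b, the other flavin demethylase, which is needed for DNA methylation of imprinted genes in oocytes, spanned 10.70 to 11.08 in crude lysate and 10.72 to 10.88 after purification (0.09 ± 0.09 SE).

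The spread between oocytes was on the whole that of expressed genes, and differed widely from member to member. The median residual SD of the 36 members was 0.19, against 0.15 for all genes and 0.19 for all genes above background on every array, with a range of 0.03 for Suv39h2 to 0.65 for Setdb2. After Setdb2, Prmt5, Kdm3a and Prdm9, the next was Kdm4a at 0.37. These SDs rest on values that are partly identical across arrays. In 22 of 36 members at least 2 arrays held exactly the same value to all deposited digits, and in 12 at least 3, where 54.9% and 30.2% of all genes did. Ehmt2, Kdm2b and Kdm4c had 4 arrays with 1 value. In Kdm2b the 3 crude lysates had an SD of 0.0017. What made the values identical was not tested.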

How the data were processed

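Gene expression was measured on 9 arrays, 1 oocyte each, grouped by the sample titles into 3 preparations. The authors deposited a table of log2 values with 35556 rows and 0 missing. Per the submitters' processing notes, the tools included GCRMA, Expression Console and GCOS, whose roles are not stated. The log2 scale was read from the values (2.41 to 13.90, array medians 7.12 to 7.24). Scanner files were not used here, so background correction could not be repeated and its effect on low values is unknown. Precision is limited by how few arrays there are.

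The platform's probe table named 21789 rows with 1 gene symbol, 1621 with several and 12146 with none. Only the first were used, and 21698 matched RefSeq by Entrez identifier with 0 symbols changed. No filter and no new normalization were applied. limma 3.58.1 in R 4.3.3 (lmFit, eBayes, default settings) was fitted once to the 3 groups together, two-sided, with Benjamini-Hochberg adjustment over 19938 genes and a threshold of 0.05. The fit was tested on simulated data. Counts per array were compared by exact permutation.

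The members, role lists and partner lists were chosen with earlier results of these data known. Genes given in every oocyte were the 4 members with the smallest p in each of 2 contrasts, the 5 with the largest residual SD among those above background on at least 1 array, 1 of each remaining role list, and partners past the threshold or with the smallest F p of their list (up to 2 a list). Prmt1, Setd1a and Kdm1b were added after their values were seen. The alternatives were normalization, filters, background level, choice of row, variance prior, array weights, a replicate block and leaving out each array.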

Additional observations from a re-analysis of the deposited data

How the results depend on the processing

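The count of members past the test was 0 under every alternative for PicoPure against RNeasy and for crude lysate against RNeasy. It was 1, Kmt2c, without direct lysis replicate 3 for crude lysate against both kits, for crude lysate against PicoPure and for the F test, so that leaving out single arrays gave 0 to 1 in each, and 0 otherwise. The cause was not tested. The median difference for crude lysate was 0.069 under a further quantile normalization, -0.050 with the filter on level and -0.05 with values raised to background, against 0.01, and -0.02 to 0.03 with single arrays left out. For PicoPure against RNeasy it was 0.21 with the filter, which drops low genes by construction, and 0.074 with raised values, against 0.12, and 0.10 to 0.15 with single arrays left out. For the number of members above background per array, the exact permutation p was 0.75 and 0.157 with the 90th and 99th percentile, 0.421 with the median of all genes, and 0.0143 to 0.0786 with single arrays left out. Members above background on all arrays numbered 19 to 28 over the alternatives. Unadjusted counts moved for PicoPure against RNeasy to 14 with raised values, against 8, and for crude lysate to 7 with the replicate block, against 4. The shares of all genes under these settings are not given, so these counts are not read as a trait of the members.

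Replicate numbers are shared between groups, but nothing ties them to a mouse. Same-numbered oocytes of different groups had correlations of their deviations between -0.08 and 0.17, and 1 of 9 pairs was over 0.1. Pairs with different numbers ran from -0.12 to 0.17, with 2 of 18 over 0.1. The numbers were therefore not taken as pairs. With the replicate block 0 members passed in each comparison, the median differences are the same by construction, and genes called over all numbered 25 against 201 for crude lysate and 0 against 12 for the kits.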
